A study of Mus musculus with 10 samples.

Results

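*Rpl3* and *Rpl3l* are paralogous genes that encode alternative forms of one ribosomal protein, uL3 of the large subunit. Both members were found by symbol in the count table (*Rpl3*, ENSMUSG00000060036, and *Rpl3l*, ENSMUSG00000002500), so they are 2 of the 57185 genes with counts and 2 of the 13452 genes that passed the filter on low counts and were tested. Neither transcript differed detectably between the genotypes in ventricle, nor did the *Rpl3l* to *Rpl3* ratio. Across the 10 mice, however, the transcripts varied inversely (Pearson's r = −0.875): hearts with more *Rpl3l* tended to have less *Rpl3*. The relation was weaker without MLPKO mice 2 and 3 (r = −0.621), and by rank it did not pass adjustment (Spearman permutation adjusted p = 0.09).

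The protein uL3 lies in the core of the large subunit and reaches towards the peptidyl transferase centre, where peptide bonds are formed. RPL3 is the form used by nearly all cells. RPL3L is a striated muscle form, found in heart and skeletal muscle, which takes the place of RPL3 in muscle ribosomes. In mice, loss of *Rpl3l* is known to be followed by a rise of *Rpl3* in the heart, and skeletal muscle lowers *Rpl3l* during hypertrophic growth.

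All 10 mice lacked muscle LIM protein (MLP, the product of *Csrp3*), a constitutive knockout that leads to dilated cardiomyopathy, and all carried floxed RAD alleles (RADfloxed/floxed). Of these, 5 had no Cre and are called MLPKO. The other 5 carried MYH6_MerCreMer, a tamoxifen-activated Cre recombinase driven in cardiomyocytes by the *Myh6* promoter, and are called cRADΔ/Δ-MLPKO (labelled MLPKO-cRADKO). Both groups received 1 dose of tamoxifen (100 mg/kg) at 10 weeks of age, and hearts were taken 1 month later, although the sample labels give an age of 16 weeks. From each mouse, apical ventricle was used as the source of polyadenylated RNA for sequencing. The paper states that these mice were male, and its results name the tissue left ventricle. Because only cRADΔ/Δ-MLPKO carried Cre, the effects of the RAD deletion and of active Cre cannot be told apart. No MLP-positive mice are included, so levels are relative to a failing heart. Hearts were measured as bulk tissue, in which fewer cells of a type and less RNA per cell cannot be told apart.

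Libraries held 33457406 to 49965101 counts. The summed level of 14 cardiomyocyte marker genes was 93250 to 106800 CPM (each count scaled to a common library size) in MLPKO and 76450 to 93530 CPM in cRADΔ/Δ-MLPKO, with 1 of the 14, *Tnnt2*, called lower in the double knockout by edgeR, which called 1.8% of all genes tested lower and 0.944% higher. Of the 14, 11 had a negative log2 fold change (median −0.18, against 0.01 over all genes tested). DESeq2 called 3 of them, *Actn2*, *Myh6* and *Tnnt2*, against 1298 of all 13452 genes tested. Markers of other cells that edgeR called higher in cRADΔ/Δ-MLPKO were *Dpt* (1 of 9 fibroblast genes), *Tek* (1 of 8 endothelial genes), *Rgs5* and *Acta2* (2 of 5 smooth muscle genes tested, held in 2 and 4 of 10 fits leaving out 1 mouse). Of the 9 fibroblast genes, 4 were positive and 5 negative (median log2 fold change −0.02). Smooth muscle genes had 3 positive and 2 negative (median 0.006), and 7 of 8 endothelial genes were positive. All 11 macrophage genes had a positive log2 fold change (median 0.47, summed level 214 to 311 CPM in MLPKO and 260 to 553 CPM in cRADΔ/Δ-MLPKO). Of these, edgeR called none and DESeq2 called 5, against 1298 of all 13452 genes tested by DESeq2. Adipocyte genes summed to 25.9 CPM in cRADΔ/Δ-MLPKO mouse 3 and to at most 0.353 CPM elsewhere. *Rrad*, the targeted gene, was counted at 140 to 282 CPM in MLPKO and at 134 to 202 CPM in cRADΔ/Δ-MLPKO. Its gene-level count did not separate the genotypes (log2 fold change −0.38, edgeR quasi-likelihood adjusted p = 0.2896), and which exons were floxed is not given in the sources used here. *Csrp3* transcript was still counted in every library, at 1009 to 3261 CPM in MLPKO and 691 to 1177 CPM in cRADΔ/Δ-MLPKO. Its log2 fold change was −1.08 (edgeR adjusted p = 0.06659, DESeq2 adjusted p = 0.03616). Gene-level counts of the targeted genes therefore do not check the labels, although the paper reports RAD protein loss in cRADΔ/Δ-MLPKO hearts by western blot.

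*Rpl3* lies on chromosome 15 (GRCm39, chr15:79961825-79976069, minus strand) and *Rpl3l* on chromosome 17 (chr17:24946751-24955119, plus strand). The canonical transcript of each has 10 exons. The coding sequences are 1212 bases (403 residues) for *Rpl3* and 1224 bases (407 residues) for *Rpl3l*. Aligned by translation, the proteins were identical at 310 of 408 positions (76.0%) and the coding bases, stop codons included, at 890 of 1227 (72.5%). The 5′ ends of the coding sequences are shown because they bear the start of a well-conserved stretch. Capitals mark the 13 of 60 aligned bases that differ between the paralogs.
Rpl3: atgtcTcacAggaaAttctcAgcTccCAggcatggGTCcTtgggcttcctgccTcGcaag
Rpl3l: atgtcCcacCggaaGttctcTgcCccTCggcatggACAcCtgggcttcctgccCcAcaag

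The 3′ ends are shown because the paralogs diverge most there. Capitals again mark differing bases, including those opposite a gap, at 54 of 120 aligned positions. *Rpl3l* has the longer 3′ end.
Rpl3: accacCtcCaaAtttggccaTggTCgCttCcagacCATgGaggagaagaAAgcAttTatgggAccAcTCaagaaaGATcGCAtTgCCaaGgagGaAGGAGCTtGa
Rpl3l: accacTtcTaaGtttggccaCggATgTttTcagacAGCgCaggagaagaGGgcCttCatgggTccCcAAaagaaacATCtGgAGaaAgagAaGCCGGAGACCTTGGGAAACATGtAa

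Residue identity ranged from 72.0% to 86.0% over successive windows of 50 aligned positions, and none of the last 8 positions was identical. The longest run of bases identical in both coding sequences was 22 bases, at coding bases 145 to 166 of each, and it is shown because it bounds how much sequence a read could share between them.
Rpl3 and Rpl3l: tacaaggctggcatgacccaca

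**Figure D1:**
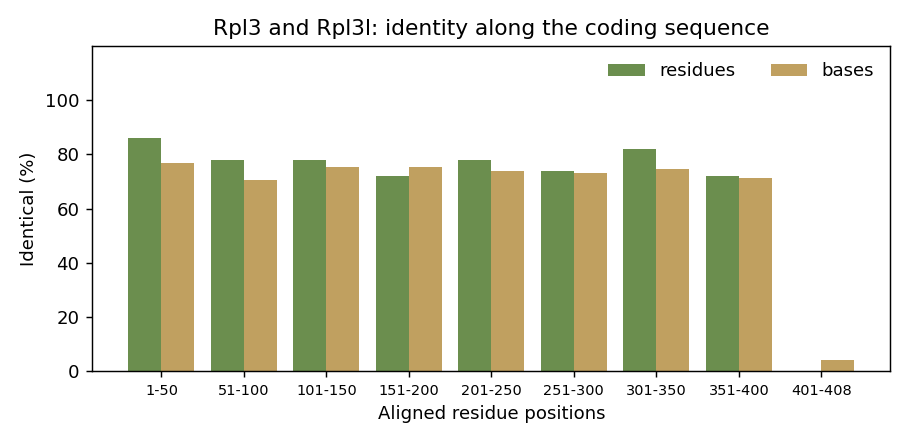
Percentage of identical residues (green) and identical coding bases (brown) between *Rpl3* and *Rpl3l* in windows of 50 aligned residue positions (x axis), the last window holding 8. Residue identity is 86.0% at the amino-terminal end, 72.0% to 82.0% in the middle windows and 0.0% over the last 8 positions at the carboxy-terminal end, where 4.2% of bases match.

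No stretch of 75 bases was common to the annotated transcripts of both genes, so reads of that length from one paralog do not match the other exactly. *Rpl3l* shared no 75-base stretch with any other annotated gene (0 of 1346). *Rpl3* did: 83.0% of the 75-base stretches of its canonical transcript (1063 of 1281) also occurred in transcripts of 8 other genes, chiefly the processed pseudogene *Rpl3-ps1* (78.3%). At 150 bases the share was 70.7%. *Rpl3-ps1* and *Rpl3-ps2* together held 402 to 622 counts per library, equal to 9.50% to 15.3% of the *Rpl3* count. How reads matching several places were counted, and whether strand was used, are not given in the sources used here. The absolute level of *Rpl3* is therefore uncertain, and *Syngr1*, on the opposite strand, overlaps its 5′ end. *Rpl3l* has no such shared sequence, although an antisense lncRNA gene overlaps its span in the annotation.

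*Rpl3l*, the muscle form, was counted at 8808, 5142, 13641, 8736 and 10072 in MLPKO mice 1 to 5 and at 8229, 10656, 7106, 11499 and 9807 in cRADΔ/Δ-MLPKO mice 1 to 5. Scaled to library size (trimmed mean of M-values, TMM), these were 204, 163, 269, 233 and 222 CPM in MLPKO. The corresponding values in cRADΔ/Δ-MLPKO were 246, 232, 194, 256 and 222 CPM. MLPKO mouse 2 was lowest and MLPKO mouse 3 highest of all 10, and the double knockout mice lay between them.

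*Rpl3*, the general form, was counted at 4231, 3660, 3518, 3260 and 4442 in MLPKO and at 3049, 3847, 3454, 3601 and 3610 in cRADΔ/Δ-MLPKO. These were 97.8, 116, 69.4, 86.9 and 98.0 CPM in MLPKO. In cRADΔ/Δ-MLPKO they were 91.2, 83.8, 94.3, 80.2 and 81.6 CPM. The order of the extremes was turned round, with MLPKO mouse 2 highest and MLPKO mouse 3 lowest.

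**Figure D2:**
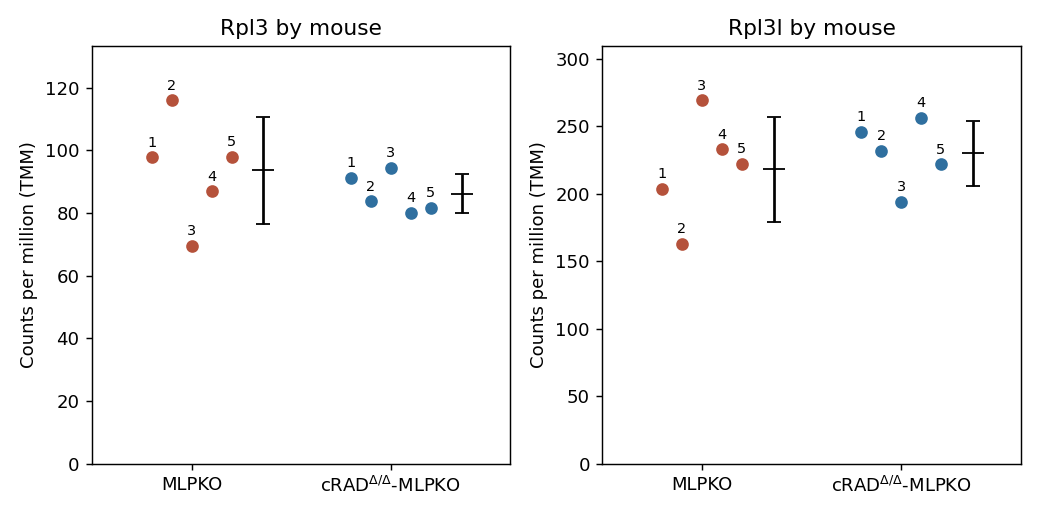
CPM (TMM-scaled, y axis from 0) of *Rpl3* (left) and *Rpl3l* (right) in each of 5 MLPKO (red) and 5 cRADΔ/Δ-MLPKO (blue) mice. Numbers are mouse numbers, and bars show mean ± SD. For both genes all cRADΔ/Δ-MLPKO values lie within the range of the MLPKO values, which is 69.4 to 116 CPM for *Rpl3* and 163 to 269 CPM for *Rpl3l*.

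For *Rpl3l*, MLPKO averaged 218 ± 39.1 CPM and cRADΔ/Δ-MLPKO averaged 230 ± 24.0 CPM (mean ± SD, n = 5 each). The log2 fold change, cRADΔ/Δ-MLPKO over MLPKO, was 0.08 (SE 0.12, edgeR quasi-likelihood adjusted p = 0.7685 over all genes tested). Mean *Rpl3* was 93.6 ± 17.1 CPM (SD, n = 5) and 86.2 ± 6.21 CPM (SD, n = 5), a log2 fold change of −0.12 (SE 0.11, edgeR adjusted p = 0.5944). On log2 CPM, the 95% interval of the difference from exact permutation ran from −0.24 to 0.42 for *Rpl3l* and from −0.38 to 0.21 for *Rpl3*. The fold changes were opposite in sign, but both intervals include 0. DESeq2 gave adjusted p values of 0.8026 and 0.6042.

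Neither member was called in either direction. Over all genes tested, 2.74% were called (369 of 13452), 1.8% as lower and 0.944% as higher in cRADΔ/Δ-MLPKO. Neither member had CPM values free of overlap between the genotypes, as 6.62% of tested genes did. Without MLPKO mouse 2, the *Rpl3l* log2 fold change was −0.01 and that of *Rpl3* was −0.03, so most of either difference rested on that mouse. Without MLPKO mouse 3 both differences grew instead, to 0.17 for *Rpl3l* (edgeR adjusted p = 0.429) and −0.20 for *Rpl3*. For *Rpl3* that fit gave an edgeR p of 0.036 before and 0.204 after adjustment.

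The ratio of *Rpl3l* to *Rpl3* counts within a library needs no scaling between libraries. It was 2.08, 1.40, 3.88, 2.68 and 2.27 in MLPKO mice 1 to 5. In cRADΔ/Δ-MLPKO it was 2.70, 2.77, 2.06, 3.19 and 2.72. The lowest and the highest ratio both belonged to MLPKO mice, and 4 of the 5 double knockout mice lay between 2.70 and 3.19.

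The ratio averaged 2.46 ± 0.915 in MLPKO and 2.69 ± 0.406 in cRADΔ/Δ-MLPKO (mean ± SD, n = 5 each). On the log2 scale the means were 1.22 ± 0.53 and 1.41 ± 0.23, a difference of 0.19 (two-sided exact permutation p = 0.492, 0.698 after Benjamini-Hochberg adjustment over 7 ratio tests). The 95% permutation interval of this difference ran from −0.45 to 0.78. With 5 mice against 5, the smallest p such a test can give is 0.00794. Leaving out MLPKO mouse 2, whose ratio was lowest, reduced the log2 difference to 0.01. Leaving out MLPKO mouse 3, whose ratio was highest, raised it to 0.37 (exact permutation p = 0.0952, the lowest over the 10 omissions). Adding the pseudogene counts to *Rpl3* gave 0.17 (exact permutation p = 0.579).

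**Figure D3:**
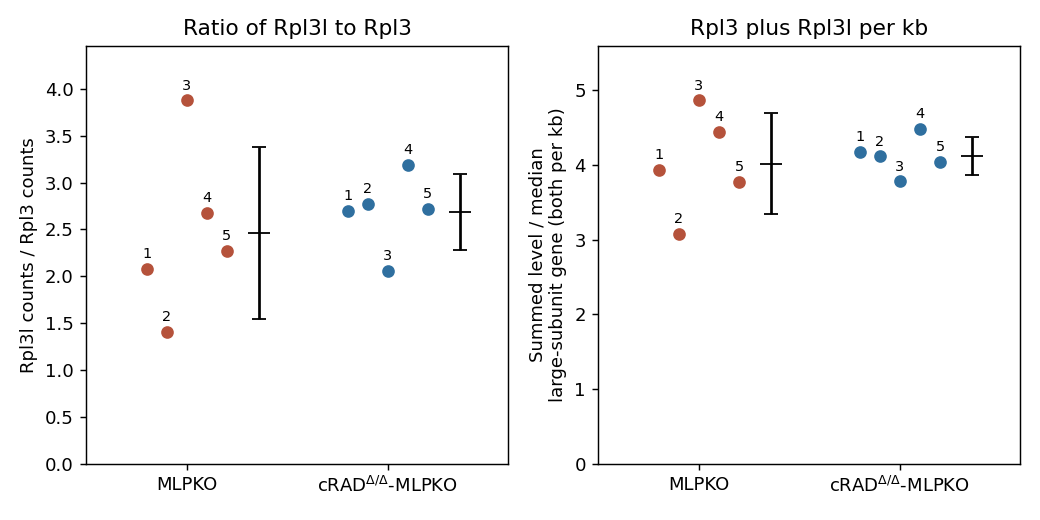
Left, *Rpl3l* counts divided by *Rpl3* counts in each mouse. Right, summed per-kilobase level of the paralogs divided by the median per-kilobase level of the other large-subunit ribosomal protein genes. Numbers are mouse numbers, bars show mean ± SD (n = 5), and both y axes start at 0. The ratio spans 1.40 to 3.88 in MLPKO and 2.06 to 3.19 in cRADΔ/Δ-MLPKO, and the groups overlap in both panels.

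Transcript levels of different genes can be compared only per length, and here the choice of length mattered. Over the union of annotated exons (5357 bases for *Rpl3*, 1688 for *Rpl3l*), *Rpl3l* made up 87.7 ± 3.97% of the summed per-kilobase level of the paralogs in MLPKO and 89.3 ± 1.58% in cRADΔ/Δ-MLPKO (mean ± SD, n = 5 each). Over the longest protein-coding transcript (1355 and 1420 bases), the shares were 68.6 ± 7.84% and 71.7 ± 3.30%. By the latter length *Rpl3l* ranged from 57.3% in MLPKO mouse 2 to 78.7% in MLPKO mouse 3. As counted, *Rpl3l* exceeded *Rpl3* per kilobase in every mouse by either length. Other genes share 83.0% of the 75-base stretches of *Rpl3*, but none of those of *Rpl3l*. How such reads were counted is not given in the sources used here, so the shares and this order are uncertain.

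Among the 48 large-subunit genes compared per kilobase over the exon union (46 others and both paralogs), *Rpl3l* ranked 5 and *Rpl3* ranked 42. Over the longest coding transcript they ranked 10 and 26. *Rplp1*, which encodes a stalk protein of the large subunit, ranked first by either length. Over the exon union, 3 large-subunit genes were under 5 CPM per kb, with *Rpl24*, which encodes a core ribosomal protein, lowest at 0.312, so counts of some of the reference genes, and with them the ranks and the median, are uncertain too. The mean level of *Rpl3l* was 133 CPM per kb against a median of 37.3 CPM per kb for the other large-subunit genes over the exon union, and 158 against 69.9 over the coding transcript.

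The level of the paralogs added together asks whether total uL3 transcript changed relative to the rest of the large subunit. Over the exon union this sum was 4.02 ± 0.680 times the median of the other large-subunit genes in MLPKO and 4.12 ± 0.256 times in cRADΔ/Δ-MLPKO (mean ± SD, n = 5 each). The log2 difference was 0.05 (two-sided exact permutation p = 0.698, 95% interval −0.23 to 0.33). By that length the sum was mostly *Rpl3l* (on average 87.7% in MLPKO and 89.3% in cRADΔ/Δ-MLPKO), so its difference largely follows *Rpl3l*. Over the longest coding transcript the sums were 3.24 ± 0.249 and 3.23 ± 0.186 times the median. The sign of the log2 difference turned there (−0.0013, two-sided exact permutation p = 0.984). The multiple itself rests on levels that the choice of length and the pseudogene sequence make uncertain.

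Mice of the same genotype differed well beyond counting error. The coefficient of variation of *Rpl3l* CPM was 17.9% in MLPKO and 10.4% in cRADΔ/Δ-MLPKO, and that of *Rpl3* was 18.2% and 7.2%. Counting error alone was at most 1.39% for *Rpl3l* and 1.81% for *Rpl3* in any library. Over all mice the highest CPM was 1.65 times the lowest for *Rpl3l* and 1.67 times for *Rpl3*. The highest ratio was 2.76 times the lowest over all mice and 1.55 times within cRADΔ/Δ-MLPKO. Whether the spread differed between the genotypes was not tested.

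The paralogs moved against each other across mice. Between log2 CPM of *Rpl3l* and *Rpl3*, Pearson's r was −0.875 over 10 mice (permutation p = 0.00142, adjusted p = 0.00852 over 6 relations). Spearman's rho was −0.758 (permutation p = 0.015, adjusted p = 0.09). Taken as deviations from the genotype means, r was −0.868, almost as strong as over all mice. Within genotypes r was −0.947 in MLPKO and −0.571 in cRADΔ/Δ-MLPKO, with only 5 mice in each.

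MLPKO mice 2 and 3 lay at either end, and without them r was −0.621 over the remaining 8. Leaving out 1 mouse at a time gave r from −0.919 to −0.764, the weakest without MLPKO mouse 2. Ranked among the other 13451 tested genes by r with *Rpl3l*, *Rpl3* was number 11 from the most negative end. *Rpl3l* was number 21 by r with *Rpl3*. The other ribosomal protein genes were spread widely around 0. The median r of the 46 other large-subunit genes was 0.135 with *Rpl3* (−0.591 to 0.749) and 0.012 with *Rpl3l* (−0.586 to 0.566), and that of the 32 small-subunit genes was 0.0649 and 0.021.

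**Figure D4:**
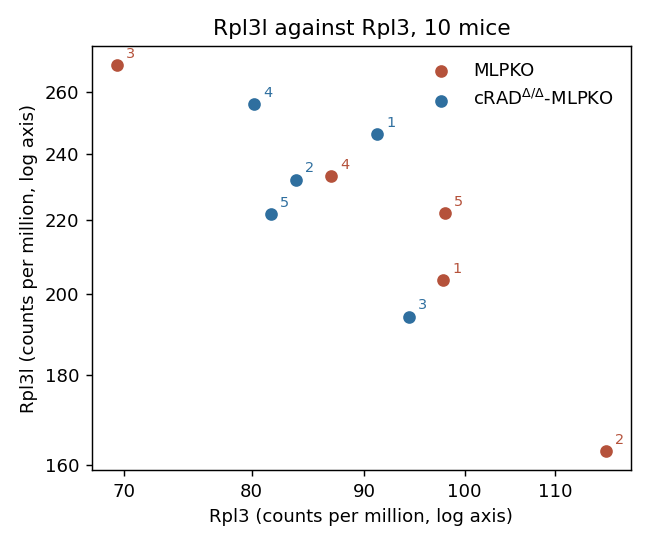
*Rpl3l* against *Rpl3* in CPM, both axes logarithmic, 1 point per mouse (red, MLPKO; blue, cRADΔ/Δ-MLPKO; numbers are mouse numbers). Points fall from upper left to lower right (Pearson's r = −0.875 on log2 CPM), with MLPKO mouse 3 at the upper left and MLPKO mouse 2 at the lower right.

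The log2 ratio was set beside 5 genes that rise in stressed myocardium. *Myh7*, *Acta1* and *Ankrd1*, coding for a foetal myosin heavy chain, skeletal α-actin and a sarcomeric stress protein, fell in cRADΔ/Δ-MLPKO, with log2 fold changes of −1.23, −1.52 and −1.27 (edgeR adjusted p = 0.010413, 0.049173 and 0.046232). The calls of *Acta1* and *Ankrd1* held in only 2 and 3 of the 10 fits that left out 1 mouse each, and that of *Myh7* in all 10. The natriuretic peptide genes *Nppa* and *Nppb* had log2 fold changes of −2.05 and −1.02 and did not pass (edgeR adjusted p = 0.1245 and 0.2411). No correlation of the ratio with these 5 genes passed 0.05 after adjustment over the 6 relations. The strongest were *Nppa* and *Nppb*, with r = −0.671 for each (permutation p = 0.0305 and 0.0335, adjusted p = 0.067 for both). Spearman's rho was −0.467 for *Nppa* and −0.358 for *Nppb* (permutation p = 0.18 and 0.312).

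MLPKO mouse 2, which had the lowest ratio, also had the highest *Nppa* (2435 CPM), *Nppb* (1425 CPM), *Myh7* (1342 CPM) and *Acta1* (19100 CPM). Without it r was −0.438 for *Nppa*, −0.35 for *Nppb*, −0.19 for *Ankrd1*, −0.04 for *Acta1* and −0.02 for *Myh7*. MLPKO mouse 5, next highest in *Nppa* (1784 CPM), had a ratio of 2.27, and MLPKO mouse 4, with the lowest *Nppa* (106 CPM), had a ratio of 2.68. MLPKO mouse 3, with the highest ratio (3.88), had 230 CPM of *Nppa*. Within MLPKO, r with the ratio ran from −0.83 for *Ankrd1* to −0.617 for *Acta1*. Within cRADΔ/Δ-MLPKO it ran from 0.0136 for *Nppb* to 0.608 for *Myh7*, with only 5 mice in each group.

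The same mouse lay at the extreme of other measures. MLPKO mouse 2 had the fewest counts (33457406), though cRADΔ/Δ-MLPKO mouse 1, with a ratio of 2.70, was close (33759811). MLPKO mouse 2 also had the highest summed level of 5 blood genes (2798 CPM against 288 to 1978 CPM elsewhere) and the lowest median correlation with its own group (0.974). Its summed level of 5 atrial genes was highest too (2440 CPM against 109 to 1790 CPM), nearly all of it *Nppa* (2435 CPM). *Bmp10* was at or below 10 counts in every mouse. *Myl4* and *Myl7* were highest instead in cRADΔ/Δ-MLPKO mouse 1 (19.6 and 4.55 CPM, against 3.33 and 1.87 CPM in MLPKO mouse 2). MLPKO mouse 3, with the highest ratio, had the most counts. Over 10 mice the log2 ratio had r = 0.593 with total counts (permutation p = 0.0671), −0.608 with the summed 9 fibroblast markers (permutation p = 0.0599), −0.664 with the blood genes (permutation p = 0.0336) and −0.671 with the atrial genes (permutation p = 0.0307). Without MLPKO mouse 2, r was 0.407 for total counts, −0.456 for fibroblast, −0.431 for blood and −0.438 for atrial genes. Without the 2 mice farthest in the measure, r was 0.524, −0.654, −0.0746 and −0.342. Because the atrial sum was nearly all *Nppa*, its r largely repeats that of *Nppa* (−0.671). In this family of 9 measures, added after the data were seen, the lowest adjusted p was 0.151. The part of depth or tissue makeup in the ratio was not tested. For the summed 14 cardiomyocyte markers r was −0.09 (permutation p = 0.807), and of 12 skeletal muscle markers, 6 were at or below 10 counts in every mouse, *Myh4* at 0 in all.

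Other genes of the translation machinery also have paralogs, some of them tissue-restricted, and their ratios were compared in the same way. The elongation factor pair, *Eef1a2* (the form of muscle and neurons) and *Eef1a1* (the general form), averaged a log2 ratio of 1.99 ± 0.15 in MLPKO and 1.44 ± 0.17 in cRADΔ/Δ-MLPKO (mean ± SD, n = 5 each). Values ran from 1.83 to 2.24 and from 1.25 to 1.69, without overlap, and the difference of −0.55 had a two-sided exact permutation p of 0.00794, the smallest possible here, which became 0.0556 after adjustment over the 7 ratio tests. *Eef1a1* rose in cRADΔ/Δ-MLPKO (501 ± 31.3 and 622 ± 45.6 CPM, log2 fold change 0.31, edgeR adjusted p = 0.03748), a call that held in 4 of the 10 fits leaving out 1 mouse. *Eef1a2* had a log2 fold change of −0.24 (edgeR adjusted p = 0.07483). Its CPM values did not overlap between the genotypes, and DESeq2 called it (adjusted p = 0.008708).

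Among ribosomal protein pairs, the log2 difference was 0.23 for *Rpl22l1* to *Rpl22* (exact permutation p = 0.0317, adjusted p = 0.074), −0.05 for *Rps27l* to *Rps27* (p = 0.532, adjusted p = 0.698) and 0.03 for *Rpl7l1* to *Rpl7* (p = 0.635, adjusted p = 0.698). For *Rpl39l*, the testis-enriched partner of *Rpl39*, it was 1.24 (exact permutation p = 0.0159, adjusted p = 0.0557), but *Rpl39l* was barely counted, at 0.225 ± 0.128 CPM in MLPKO and 0.517 ± 0.129 CPM in cRADΔ/Δ-MLPKO (mean ± SD, n = 5 each). No ratio passed 0.05 after adjustment. *Rpl36al* did not pass the filter on low counts, so its ratio to *Rpl36a* was not tested.

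**Figure D5:**
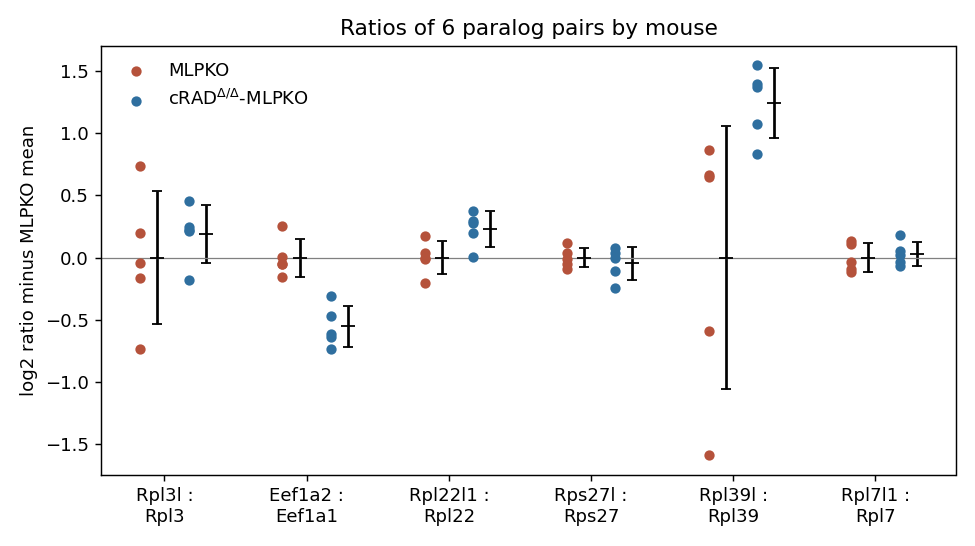
Log2 ratio of 6 paralog pairs in each mouse, with the MLPKO mean of the pair subtracted (red, MLPKO; blue, cRADΔ/Δ-MLPKO; bars, mean ± SD, n = 5). Ratios of *Rpl3l* to *Rpl3* overlap between the genotypes, while those of *Eef1a2* to *Eef1a1* do not, the double knockout mean being 0.55 lower on the log2 scale.

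The remaining ribosomal protein genes gave the setting for these values. Of the 46 other large-subunit genes none was called by edgeR or DESeq2, 32 having a positive log2 fold change, with a median of 0.04 against 0.01 over all genes tested. *Rpl37a*, *Rpl38* and *Rpl35a* had the smallest p values of this list, with log2 fold changes of 0.19, 0.30 and 0.20 (edgeR adjusted p = 0.11419, 0.16771 and 0.23031). Of the 32 small-subunit genes 29 were positive, with a median of 0.09, against 52.1% positive over all genes tested, and 1 was called, near the 2.74% of all genes: *Rps13* rose from 112 ± 3.91 to 133 ± 7.28 CPM (log2 fold change 0.24, edgeR adjusted p = 0.03879), a call that held in 2 of the 10 fits leaving out 1 mouse. DESeq2 called 3 of this list, *Rps13*, *Rps19* and *Rps3*, a share near that of all genes tested (1298 of 13452). Of the 7 other paralogs listed, 5 passed the filter and none was called. *Rpl10l* was at 0 counts in every mouse.

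Of 34 ribosome assembly genes, 26 had a negative log2 fold change (median −0.09), against 6438 of the 13452 genes tested (median 0.01). None was called by edgeR, while DESeq2 called 1, *Gtpbp4*, as did edgeR without MLPKO mouse 4. These fits called 1298 and 828 of all genes tested, so 1 of 34 was not above their share. *Gtpbp4*, *Rrn3* and *Ftsj3*, a GTPase of large-subunit assembly, an initiation factor of RNA polymerase I and a methyltransferase of pre-rRNA processing, had the smallest p values, with log2 fold changes of −0.27, −0.17 and −0.26 (edgeR adjusted p = 0.05703, 0.11204 and 0.12605). *Grwd1*, the chaperone that accompanies newly made uL3, was at 13.3 ± 1.52 CPM in MLPKO and 10.9 ± 1.45 CPM in cRADΔ/Δ-MLPKO (mean ± SD, n = 5 each), a log2 fold change of −0.29 (edgeR adjusted p = 0.1429). *Mettl18*, which methylates a histidine of RPL3, was at 2.32 ± 0.455 and 2.63 ± 0.160 CPM (log2 fold change 0.18, edgeR adjusted p = 0.5524).

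The genes whose log2 CPM most resembled *Rpl3l* over the 10 mice were *Ubr2*, a ubiquitin ligase (r = 0.959), *Echdc3* (0.929), *Narf* (0.928), *Mrpl27*, a mitochondrial ribosomal protein gene (0.922), and *Dohh*, which completes the hypusine residue of eIF5A (0.922). Those most like *Rpl3* were *Otub2*, a deubiquitinase (r = 0.944), *Morf4l2* (0.933), *Nt5c* (0.922), *Zbed5-ps* (0.913) and *Fgf18* (0.911). None of these 10 genes was called between the genotypes, with log2 fold changes from −0.34 for *Fgf18* to 0.16 for *Dohh*. Without MLPKO mouse 2 their r lay between 0.818 for *Mrpl27* and 0.908 for *Ubr2*. These correlations were picked as the highest of 13451 and are a description of these 10 libraries.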

How the data were processed

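Bulk RNA sequencing was performed on apical ventricle of 5 MLPKO and 5 cRADΔ/Δ-MLPKO mice. Per the study's methods and labels, the authors checked reads with FastQC, aligned them to GRCm39 with STAR and counted them with featureCounts, with versions, strand and multi-mapping settings not given in the sources used here. The deposited values are raw counts per gene, not normalised, for 60676 genes, of which 3491 were blank in all libraries. Depth was 33457406 to 49965101 counts, so counting error on either member was under the spread between mice.

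Symbols, positions and lengths came from the GENCODE annotation of GRCm39. The study's filter was applied: a gene had to exceed 10 counts in 6 or more of the 10 mice, and predicted genes (names with Gm or Rik) were dropped. The main test was edgeR (4.0.16) quasi-likelihood with TMM factors and Benjamini-Hochberg adjustment at 0.05, checked on simulated counts. DESeq2 (1.42.0) and limma (3.58.1) were alternatives. Ratios were tested with two-sided exact permutation over 252 splits, and correlations with 100000 permutations (scipy 1.17.1). Replicates are separate mice. Same-numbered mice are different animals, and their deviations correlated by −0.0423 to 0.152, so numbers were not used as pairs. No pair of libraries agreed within sampling noise.

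Named genes were the members, 6 paralog pairs, *Grwd1*, *Mettl18*, *Rrad*, *Csrp3*, 5 stress genes, the called genes of each list or else the 3 of smallest p, and the 5 genes most like each member. Members and lists were chosen with earlier results of these data known. Coding sequences were translated and aligned with Biopython (1.88).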

Additional observations from a re-analysis of the deposited data

Results flagged for a closer look

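Within groups of 5 mice, 38 sets of values were screened for a sample standing far from its group by Dixon's test at the 95% level, which chance alone flags in about 1 of 20 groups, and 3 stood out. None concerned *Rpl3*, *Rpl3l* or their ratio. *Acta1* in cRADΔ/Δ-MLPKO mouse 1 was at 8016 CPM against 2809 to 3688 CPM in the other 4 mice of that group, at a ratio of *Rpl3l* to *Rpl3* of 2.70. *Nppb* in cRADΔ/Δ-MLPKO mouse 2 was at 611 CPM against 234 to 291 CPM, at a ratio of 2.77. *Eef1a2* in cRADΔ/Δ-MLPKO mouse 4 was at 1870 CPM against 1613 to 1680 CPM, and this mouse had the highest *Rpl3l* to *Rpl3* ratio of its group, 3.19. The reasons were not tested.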

How the results depend on the processing

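Under 19 alternatives (other scaling factors, filters, tests and the omission of each mouse) neither member passed the test: the *Rpl3* log2 fold change ranged from −0.20 to −0.03 and that of *Rpl3l* from −0.01 to 0.17, its sign turning only without MLPKO mouse 2 (−0.0123). The count of genes called was 369 and became 1298 with DESeq2 and 47 (without MLPKO mouse 5) to 828 (without MLPKO mouse 4) on leaving out each mouse. At an unadjusted p under 0.05 there were 2900. Leaving out each mouse, the log2 ratio difference of *Rpl3l* to *Rpl3* ranged from 0.00795 to 0.374 and the correlation of the paralogs from −0.919 to −0.764. The summed uL3 log2 difference ranged from −0.0407 to 0.125 on leaving out each mouse, and was −0.0013 over the longest coding transcript length. Ranges on the same omissions were −0.614 to −0.49 for *Eef1a2* to *Eef1a1*, 0.179 to 0.286 for *Rpl22l1* to *Rpl22*, −0.0786 to 0.00279 for *Rps27l* to *Rps27*, 0.847 to 1.46 for *Rpl39l* to *Rpl39* and −0.00482 to 0.065 for *Rpl7l1* to *Rpl7*. The median log2 fold change kept its sign in the 4 lists of ribosomal and assembly genes, and ranged from 0.0812 to 0.243 for the other paralogs. Without the 2 mice farthest in *Myh7*, its correlation with the ratio turned to 0.198.

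With the mouse number as a block, the log2 fold change was 0.09 for *Rpl3l* and −0.10 for *Rpl3* (edgeR adjusted p = 0.739 and 0.669), and 281 genes were called. Of the calls named, those of *Eef1a1*, *Rps13*, *Ankrd1* and *Acta2* were lost under the block (edgeR adjusted p = 0.07311, 0.0578, 0.05141 and 0.05692). An exact sign-flip test of same-numbered mice, whose smallest two-sided p is 0.0625, gave p = 0.562 for the *Rpl3l* to *Rpl3* log2 ratio difference (0.19) and p = 0.562 for summed uL3 (0.05). For the log2 ratio differences of *Eef1a2* to *Eef1a1* (−0.55), *Rpl22l1* to *Rpl22* (0.23) and *Rpl39l* to *Rpl39* (1.24) the sign-flip test gave exact p = 0.0625, 0.125 and 0.0625, and for *Rps27l* (−0.05) and *Rpl7l1* (0.03) 0.562 and 0.75. Of the 5 numbers, 2 correlated best with their own number. For *Rpl3* and *Rpl3l*, counting error (at most 1.81%) was under the spread between the 5 mice of each group (coefficient of variation at least 7.2%). *Rpl39l* was barely counted, and the part of depth in the ratios was not tested.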
